A study of Mus musculus with 16 samples.

Results

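The regions described here are enhancers of 3T3-L1 cells that gained acetylation of histone H3 at lysine 27 (H3K27ac) during the first 48 h of adipogenic induction, already carried mono-methylation of lysine 4 (H3K4me1) before induction, and were still acetylated at 48 h in cells that overexpressed SETD5. There were 1501 such regions among the 31292 H3K27ac islands of the empty-vector 48 h library of replicate A, which served as the anchor list. Under other choices the number ran from 721 (islands at or above the median score of their list) to 2614 (replicate A left out). An island is a stretch of genome in which the peak caller SICER found more reads than its background model allows. Of the 31292 anchor islands, 28364 overlapped an island of replicate B by at least 1 bp, 6517 of these overlapped no empty-vector 0 h island of replicate A or B, and 5761 of these lay outside every annotated promoter (1000 bp upstream to 100 bp downstream of a transcript start). These 5761 are called the distal induced islands. Islands were present in both SETD5 48 h lists at 3727 of them, and 1501 of these overlapped an H3K4me1 island at 0 h. The values that chose the members are therefore the H3K27ac lists of empty-vector cells at 0 h and 48 h and of SETD5 cells at 48 h, with the H3K4me1 list at 0 h. Where these lists appear again below, their values are descriptions of the chosen regions. Among all 19960 distal islands of the anchor list, the same lists overlapped 88.1% (empty-vector 48 h replicate B), 80.9% and 82.0% (SETD5 48 h), 64.9% (H3K4me1 at 0 h), and 60.5% and 59.7% (empty-vector 0 h).

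3T3-L1 is a mouse preadipocyte line that differentiates into adipocytes when confluent, growth-arrested cells (0 h) receive isobutylmethylxanthine, dexamethasone and insulin. Empty-vector cells carried the retroviral vector alone, and SETD5 cells were a stably transduced line with moderate overexpression of V5-tagged SETD5 from a weak viral promoter. H3K27ac was profiled in both lines at 0 h and 48 h and SETD5-V5 at 0 h and 6 h, with 2 libraries (replicates A and B) per condition, and H3K4me1 at 0 h and 48 h and endogenous SETD5 at 0 h and 6 h with 1 library each, which gave 16 lists. The labels give the H3K4me1 libraries a SETD5-V5 virus and both V5 libraries of replicate A (0 h and 6 h) none, whereas the study names no virus for the H3K4me1 cells and describes the V5 cells as transduced, so the virus status of those libraries cannot be told with certainty. In bulk chromatin, fewer cells with a mark and less mark per cell cannot be told apart.

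Enhancers are distal elements that raise the transcription of genes on the same chromosome. H3K4me1 without H3K27ac marks a primed enhancer, one that is accessible to activators but not yet in use, and H3K27ac marks the active state. The study's definition of primed also requires that H3K27me3 be absent. That mark was not profiled in these libraries, so primed here means H3K4me1 without H3K27ac. SETD5 is a protein with a SET domain that associates with the NCoR-HDAC3 co-repressor, a complex that removes acetyl groups from histones. In early adipogenesis, C/EBPβ, C/EBPδ and the glucocorticoid receptor act at such enhancers before PPARγ and C/EBPα, the factors that drive the adipocyte program.

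The cells carried the promoter acetylation of their labelled type. Of 9 fibroblast and preadipocyte markers, 8 or 9 had an H3K27ac island over the promoter in each of the 8 H3K27ac lists. Of 9 adipocyte markers, 3 did so in every 0 h list, 9 and 8 in the empty-vector 48 h lists of replicates A and B, and 6 and 7 in the SETD5 48 h lists. Adipoq had none in either SETD5 48 h list, Retn none in replicate A of these, and Cd36 none in both of these and in empty-vector replicate B. None of 5 skeletal muscle markers had one in any list. Among the markers of other types, Runx2 had one in all 8 lists, Tek in all 4 of the 0 h lists, Csf1r in 3 of the 0 h lists, and Krt8 in both empty-vector 48 h lists.

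To show what the regions look like, stretches of 240 bp are printed from the 3 members with the highest score in the anchor list, which were also the 3 highest-scoring members with SETD5-V5 in both libraries at 6 h, and from the 6 members nearest to Scd1, Mgll and Rxra, the genes of the adipogenic and lipid lists with 2 members each. Each stretch lies inside the H3K27ac islands of all 4 of the 48 h libraries and outside annotated exons, and is read from the plus strand of mm9. Capitals mark matches, on either strand, to the motifs of C/EBP (TTGCNNAA), AP-1 (TGACTCA), TEAD (CATTCCA), EBF (CCCNNGGG), STAT5 (TTCCNGGAA), RUNX (TGTGGTT), CREB (TGACGTCA), the glucocorticoid receptor (ACANNNTGT) and PPAR-RXR.
1700088E04Rik +11.5 kb (chr15:78952461-78952700): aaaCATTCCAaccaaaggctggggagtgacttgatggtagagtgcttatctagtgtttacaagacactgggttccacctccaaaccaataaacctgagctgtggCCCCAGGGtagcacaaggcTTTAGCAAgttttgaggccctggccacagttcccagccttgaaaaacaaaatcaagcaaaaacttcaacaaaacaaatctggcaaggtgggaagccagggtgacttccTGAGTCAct
Dnttip2 +63.5 kb (chr3:122038914-122039153): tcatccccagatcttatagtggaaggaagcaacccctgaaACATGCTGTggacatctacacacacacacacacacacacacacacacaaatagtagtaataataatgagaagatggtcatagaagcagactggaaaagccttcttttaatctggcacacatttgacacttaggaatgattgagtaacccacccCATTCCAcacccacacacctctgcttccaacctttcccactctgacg
Abhd5 +54.5 kb (chr9:122326299-122326538): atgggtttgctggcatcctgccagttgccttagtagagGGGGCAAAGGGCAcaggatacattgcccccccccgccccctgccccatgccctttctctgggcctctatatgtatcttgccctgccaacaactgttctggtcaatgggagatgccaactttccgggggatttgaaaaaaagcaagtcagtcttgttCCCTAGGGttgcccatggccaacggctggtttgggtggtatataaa
Scd1 +17.5 kb (chr19:44468443-44468682): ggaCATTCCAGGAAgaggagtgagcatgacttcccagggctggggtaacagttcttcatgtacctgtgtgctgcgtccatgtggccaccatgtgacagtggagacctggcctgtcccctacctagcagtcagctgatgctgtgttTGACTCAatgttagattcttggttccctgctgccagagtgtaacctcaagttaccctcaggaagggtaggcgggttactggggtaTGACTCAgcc
Mgll +20.7 kb (chr6:88696607-88696846): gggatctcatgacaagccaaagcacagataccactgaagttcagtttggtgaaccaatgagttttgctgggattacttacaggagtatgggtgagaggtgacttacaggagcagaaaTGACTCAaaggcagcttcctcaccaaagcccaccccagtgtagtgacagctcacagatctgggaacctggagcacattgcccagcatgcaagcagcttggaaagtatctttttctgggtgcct
Scd1 -30.6 kb (chr19:44512414-44512653): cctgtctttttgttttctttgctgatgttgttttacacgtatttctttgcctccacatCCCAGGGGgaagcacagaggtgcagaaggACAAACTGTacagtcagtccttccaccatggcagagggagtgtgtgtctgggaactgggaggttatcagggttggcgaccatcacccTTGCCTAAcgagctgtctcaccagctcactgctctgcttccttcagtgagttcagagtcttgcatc
Rxra -22.7 kb (chr2:27509496-27509735): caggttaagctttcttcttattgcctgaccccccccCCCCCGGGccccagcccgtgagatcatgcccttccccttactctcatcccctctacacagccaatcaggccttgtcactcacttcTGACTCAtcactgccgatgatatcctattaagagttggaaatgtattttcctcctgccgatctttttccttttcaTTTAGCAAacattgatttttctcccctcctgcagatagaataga
Rxra -13.4 kb (chr2:27579429-27579668): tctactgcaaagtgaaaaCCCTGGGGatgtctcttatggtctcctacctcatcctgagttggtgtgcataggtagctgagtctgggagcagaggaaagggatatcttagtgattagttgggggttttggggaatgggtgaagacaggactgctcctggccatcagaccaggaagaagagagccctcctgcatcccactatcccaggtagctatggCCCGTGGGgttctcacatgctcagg
Mgll +49.1 kb (chr6:88724246-88724485): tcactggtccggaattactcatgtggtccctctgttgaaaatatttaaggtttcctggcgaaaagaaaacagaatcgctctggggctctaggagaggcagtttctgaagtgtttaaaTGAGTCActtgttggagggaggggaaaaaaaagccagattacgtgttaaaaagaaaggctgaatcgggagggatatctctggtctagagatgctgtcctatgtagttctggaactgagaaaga
The first 3 stretches come from an intron of Micall1, nearest to the start of 1700088E04Rik, from intergenic sequence nearest to Dnttip2, and from intergenic sequence nearest to Abhd5, whose product activates the main triglyceride lipase of adipocytes. The first holds a match each for TEAD, EBF, C/EBP and AP-1, that at Dnttip2 a glucocorticoid receptor and a TEAD match, and that at Abhd5 a PPAR-RXR and an EBF match. The Scd1 +17.5 kb stretch lies just beyond the 3′ end of Scd1, the desaturase that makes monounsaturated fatty acids, and holds 2 AP-1 matches, with a TEAD match that runs into a STAT5 match. Both Mgll stretches are intronic and hold a single AP-1 match each, and Mgll encodes monoacylglycerol lipase. Rxra encodes the nuclear receptor that pairs with PPARγ, and its 2 members lie upstream of the gene and in an intron. The stretches at Dnttip2, Scd1 +17.5 kb and Mgll lay wholly inside SETD5-V5 islands of both libraries at 6 h, that at Scd1 -30.6 kb inside one of replicate B, and the others inside none.

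The first question was whether SETD5 occupied these regions during induction, since they kept their acetylation in cells with excess SETD5. SETD5-V5 islands were found on most members at 6 h and on few at 0 h. At 0 h, 297 of 1501 members (19.8%, 95% Wilson interval 17.8 to 21.9) overlapped an island of replicate A, and 107 (7.13%, 5.93 to 8.54) overlapped one of replicate B. At 6 h, 1131 (75.3%, 73.1 to 77.5) did so in replicate A, and 901 (60%, 57.5 to 62.5) did so in replicate B. Both 6 h shares lay above both 0 h shares, and the mean share was 67.7% ± 10.8 (SD, n = 2) at 6 h against 13.5% ± 8.95 (SD, n = 2) at 0 h, a difference of 54.2 percentage points. The exact permutation test over the 2 and 2 libraries gave a two-sided p = 0.333, the smallest that this design allows. Among all 19960 distal islands of the anchor list, the background shares were 29.7% and 12.9% at 0 h and 68.0% and 55.3% at 6 h, so the members stood below this background at 0 h and above it at 6 h in each replicate. Among the 12950 distal islands that had H3K4me1 at 0 h, as the members do, the shares were 42.0% and 18.5% at 0 h and 79.9% and 65.9% at 6 h, all above those of the members. Among the 5761 distal induced islands, the shares were 10.4% and 3.59% at 0 h and 53.2% and 41.7% at 6 h, and the members stood above all of them. The lists differ in size, with 16054 and 6666 SETD5-V5 islands at 0 h and 35573 and 27220 at 6 h in replicates A and B, and with the 6000 highest-scoring islands of every V5 list the difference on the members was 19.5 points in place of 54.2.

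In both 6 h libraries together, 869 members (57.9%) had a SETD5-V5 island, against 52.9% of all distal islands and 38.7% of the distal induced islands. A further 294 members (19.6%) had one in 1 of the 6 h lists, and 338 (22.5%) in neither. The combination of an island in both 6 h lists and in no 0 h list was found on 614 members (40.9%), against a background of 27.4% of all distal islands and 30.4% of the distal induced islands. An island at 0 h in either library and none at 6 h was found on 20 members (1.33%), near the share of all distal islands (1.68%) and of the distal induced islands (1.11%).

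**Figure D1:**
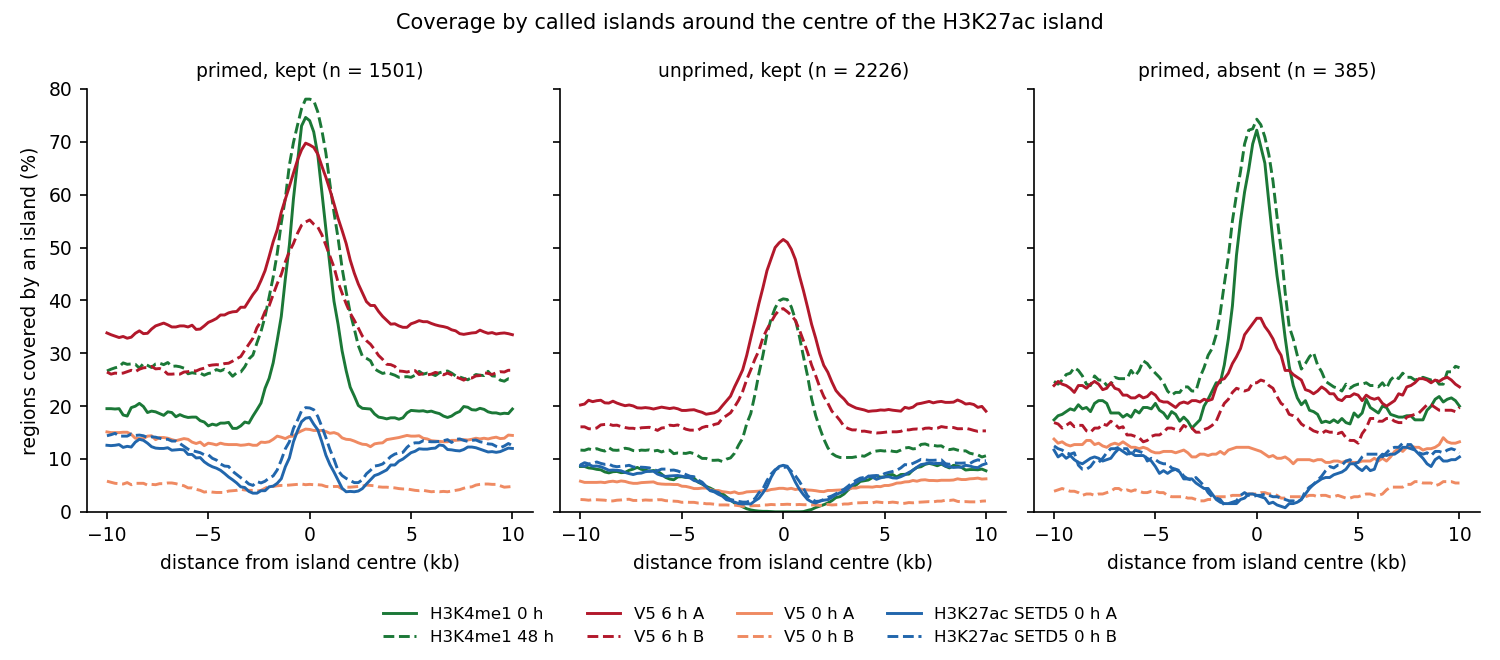
Percentage of regions covered by a called island (vertical axis) at each distance from the centre of the anchor H3K27ac island (horizontal axis, kb), for members (left), unprimed kept regions (middle) and primed absent regions (right), with 1 line per library. On the members SETD5-V5 at 6 h peaked at the centre, at 69.4% in replicate A and 55.2% in replicate B. At 0 h the SETD5-V5 share at the centre was near that at 10 kb, with lower shares between.

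The SETD5-V5 islands at 6 h were centred on the members. At the centre of the anchor island 69.4% of members were covered in replicate A and 55.2% in replicate B, against 33.7% and 26.6% at 10 kb to either side. At 0 h there was no such rise over the level at 10 kb, with 15.6% at the centre and 14.8% at 10 kb in replicate A, and 5.20% and 5.30% in replicate B. Between these the share was lower, down to 12.6% at 3 kb in replicate A and 3.90% at 5.2 kb in replicate B. The islands were long: on the members that had one, the overlapping SETD5-V5 islands at 6 h had a median summed length of 5600 bp in replicate A and 5400 bp in replicate B, against a median anchor island of 3000 bp, so that they covered a median of 100% and 96.3% of it. Within their own lists, a median of 28.2% and 29.0% of SETD5-V5 islands scored above the best island on a member.

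To find where the members differed from other induced enhancers, they were set beside 2 sets from the same 5761 distal induced islands. Unprimed kept regions (n = 2226) were in both SETD5 48 h lists but had no H3K4me1 island at 0 h, and primed absent regions (n = 385) had H3K4me1 at 0 h but an island in neither SETD5 48 h list. Among the members and these 2 sets, SETD5-V5 at 6 h was most frequent on the members. On unprimed kept regions the shares were 55.4% in replicate A and 42.7% in replicate B, and on primed absent regions 41.6% and 28.3%. Members exceeded both sets within each replicate, and both shares on the members (75.3% and 60%) lay above both shares on either set. In a logistic model across the 5761 islands with island length as a covariate, the odds of a SETD5-V5 island at 6 h on an unprimed kept region were 0.424 times those on a member (95% interval 0.367 to 0.491) in replicate A and 0.521 times (0.455 to 0.596) in replicate B. On a primed absent region they were 0.246 times (0.195 to 0.312) in replicate A and 0.281 times (0.220 to 0.359) in replicate B. Every interval left out 1. The intervals treat neighbouring islands as independent and cover the sampling of islands, not of cultures, and both sets of each contrast were scored in the same 2 libraries. Members had the higher share in 2 of 2 libraries in each contrast, with an exact sign-flip p = 0.5, the smallest that 2 pairs allow.

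The same order was seen in each range of island length. Among islands over 4000 bp, SETD5-V5 at 6 h was on 82.0% and 69.5% of 417 members in replicates A and B, on 62.6% and 49.6% of 446 unprimed kept regions and on 35.0% and 21.7% of 60 primed absent regions. Among islands of at most 2000 bp the shares were 70.1% and 53.9% of 304 members, 47.5% and 33.9% of 602 unprimed kept regions, and 36% and 28.1% of 114 primed absent regions. Around the centre, the rise over the level at 10 kb was 35.7 and 28.6 points on members, 31.9 and 22.8 points on unprimed kept regions and 12.9 and 6.10 points on primed absent regions. The median share of SETD5-V5 islands that scored above the best one on a region was 28.2% and 29.0% on members. It was 42.3% and 39.7% on unprimed kept regions and 41.1% and 42.2% on primed absent regions, and was not tested.

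**Figure D2:**
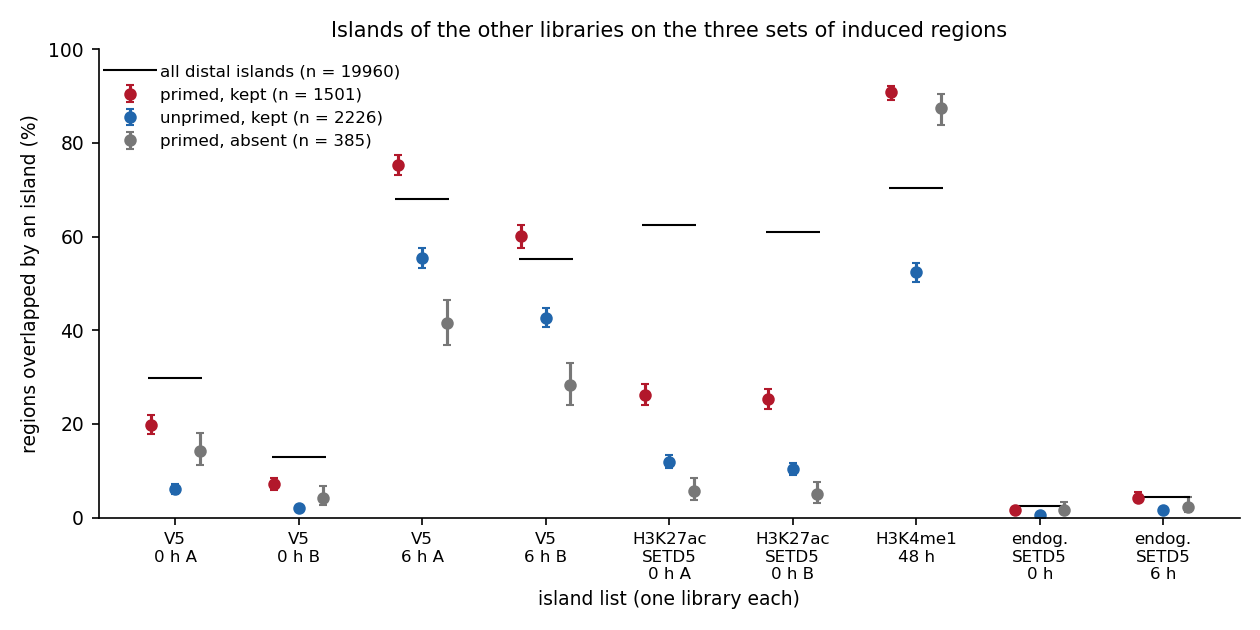
Percentage of regions overlapped by an island (vertical axis) in each library that did not choose the regions (horizontal axis), with 95% Wilson intervals over regions and a dash for all 19960 distal islands. Members (red) stood above unprimed kept regions (blue) in every library shown, and above primed absent regions (grey) in all but endogenous SETD5 at 0 h.

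Some members were already acetylated before induction in the SETD5 cells, although by the rule none was so in empty-vector cells. At 0 h in SETD5 cells, 394 members (26.2%, 24.1 to 28.5) overlapped an H3K27ac island of replicate A, 379 (25.2%, 23.1 to 27.5) one of replicate B, and 261 (17.4%) one of each, against a background of 12.8%, 11.9% and 7.62% of the distal induced islands (62.4%, 60.9% and 57.9% of all distal islands, most of which had an island at 0 h in empty-vector cells too). The shares were 11.9% and 10.3% on unprimed kept regions and 5.71% and 4.94% on primed absent regions, so that the 3 sets did not overlap. The odds relative to members were 0.367 (0.309 to 0.437) and 0.340 (0.283 to 0.407) for unprimed kept regions and 0.163 (0.104 to 0.255) and 0.154 (0.0955 to 0.248) for primed absent regions in replicates A and B. Members had the higher share in 2 of 2 libraries in each contrast, with an exact sign-flip p = 0.5 over the libraries. Members and primed absent regions were separated by the same mark in the same line at 48 h, so that contrast is not independent of the rule. These 0 h islands were short and weak: their median length was 1600 bp in replicate A and 2200 bp in replicate B, and a median of 83.5% and 82.6% of the islands of those lists scored higher. The SETD5 0 h lists held 39949 and 36604 islands against 33704 and 35460 for empty-vector cells, and with the 31000 highest-scoring islands of every H3K27ac list the odds, averaged over replicates, were 0.279 for unprimed kept and 0.188 for primed absent regions.

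Most members also had H3K4me1 at 48 h. At 48 h, 1363 members (90.8%, 89.2 to 92.2) had an H3K4me1 island in the single library, against a background of 70.5% of all distal islands and 63.6% of the distal induced islands. The members had been chosen for H3K4me1 at 0 h, and among the distal islands with H3K4me1 at 0 h the share was 86.9% (11252 of 12950), and 90.2% among the 2136 induced ones. Of the 1363 members, 1007 (73.9%) had a longer H3K4me1 island at 48 h than at 0 h, 286 (21.0%) a shorter one and 70 one of equal length, with a median ratio of 1.46. Over all distal islands with H3K4me1 at both times (n = 11252), 54.8% had a longer and 39.3% a shorter island, with a median ratio of 1.09, and over the 337 such primed absent regions 68.2% had a longer one. The whole list covered 132.7 Mb at 48 h and 123.1 Mb at 0 h, and the difference from the background was not tested. The median summed length went from 2000 bp at 0 h over all members to 3400 bp at 48 h over those with an island. The 138 members without an island at 48 h had ranked low at 0 h, with a median of 72.5% of H3K4me1 islands scoring higher, against 46.4% for members that kept one. Unprimed kept regions had H3K4me1 at 48 h in 52.3%, a set chosen for its absence at 0 h. Primed absent regions had it in 87.5%, with odds relative to members of 0.799 (0.562 to 1.14), an interval that holds 1. There is no replicate of either H3K4me1 library.

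Endogenous SETD5 was on few members. At 0 h, 23 members (1.53%, 1.02 to 2.29) and at 6 h, 64 (4.26%, 3.35 to 5.41) overlapped an island of the single libraries, against 2.41% and 4.49% of all distal islands and 0.746% and 2.48% of the distal induced islands. These lists are short, with 2132 and 3293 islands, and give no reads per island, so that absence of an island means only that it was below the caller's threshold. Of the 64 members with endogenous SETD5 at 6 h, 59 (92.2%) had SETD5-V5 in both 6 h lists and 2 more in 1 of them, near the shares of 92.7% of 896 such islands among all distal islands and 89.5% of 143 among the distal induced islands.

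The share of members with SETD5-V5 differed with the rank of their H3K4me1 island at 0 h, a list that chose the members. When the members were split into 4 groups of near-equal size by the rank of their H3K4me1 island at 0 h, SETD5-V5 at 6 h was on 85.1% and 68.5% of the 375 members with the highest-scoring H3K4me1 in replicates A and B, on 74.9% and 61.1% of the second group, on 74.1% and 56.0% of the third, and on 67.3% and 54.5% of the 376 members with the lowest. At 0 h the same groups ran from 35.7% and 12.8% to 11.2% and 3.19%. H3K27ac at 0 h in SETD5 cells fell across the groups from 34.9% in both replicates to 17% and 16.8%. All distal islands in the same ranges of H3K4me1 rank had SETD5-V5 at 6 h in 87.3% and 73.5% of the first, 75.6% and 60.5% of the second, 70.3% and 56.0% of the third and 65.8% and 52.1% of the last range, so the gradient was not particular to the members. These are descriptions of regions that share libraries, and longer H3K4me1 islands lie in the first group (median 3600 bp against 1400 bp in the last).

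The rule asked only that an H3K27ac island be present in SETD5 cells at 48 h, not that it be as wide as in empty-vector cells. The islands on the members had a median length of 3000 and 2800 bp in empty-vector replicates A and B and of 2400 and 2600 bp in SETD5 replicates A and B. In 531 members (35.4%) both SETD5 islands were shorter than both empty-vector islands, in 198 (13.2%) both were longer, and in 772 (51.4%) the lengths of the groups overlapped. The median ratio of the mean SETD5 length to the mean empty-vector length was 0.857, while replicates of either line differed by a median of 1.27-fold. Over the whole lists the median island was 2800 and 2400 bp in empty-vector and 2000 and 2200 bp in SETD5 cells. For comparison, 34.5% of unprimed kept regions were shorter in both SETD5 lists and 14.4% longer, and of the 9950 distal islands that were present at 0 h and kept, 26.3% were shorter and 18.6% longer. Rank went the other way from length: by the percentage of islands in its list that scored higher, 595 members (39.6%) ranked higher in both SETD5 lists than in both empty-vector lists, and 414 (27.6%) ranked lower. The same shares were 42.9% and 26.1% of unprimed kept regions and 54.9% and 18.7% of the 9950 distal islands. The SETD5 lists were the longer ones, with 39068 and 39451 islands against 31292 and 33131, which moves this percentage, so neither length nor rank gives the amount of H3K27ac on the members. These lists chose the members, and no test was made.

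The same lengths were then described by SETD5-V5, again with no test. Of the 869 members with SETD5-V5 in both 6 h lists, 262 (30.1%) were shorter in both SETD5 48 h lists and 144 (16.6%) longer, with a median ratio of 0.914. Of the 338 with SETD5-V5 in neither list, 159 (47.0%) were shorter and 23 (6.80%) longer, with a median ratio of 0.720. The 2 groups also differed in the length of the anchor island, with medians of 3200 and 2800 bp. Among unprimed kept regions 30.9% of those with SETD5-V5 in both lists and 38.2% of those with it in neither were shorter, and among distal islands present at 0 h and kept 24.8% and 31.3%. The members without SETD5-V5 also had weaker priming, with a median of 60.6% of H3K4me1 islands scoring above theirs at 0 h against 45.5% for the members with it, and H3K4me1 at 48 h on 84.0% against 92.1%.

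**Figure D3:**
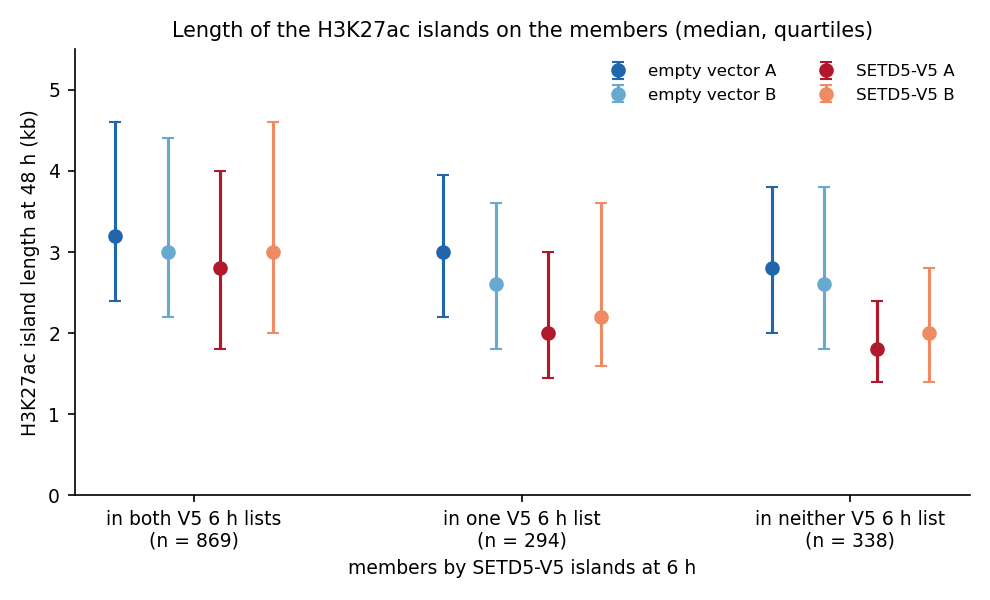
Length of the H3K27ac islands at 48 h (vertical axis, kb, median with quartiles) on members grouped by SETD5-V5 islands at 6 h (horizontal axis), for the 2 empty-vector and the 2 SETD5 libraries. Where SETD5-V5 was in neither list the medians were 2800 and 2600 bp in empty-vector cells and 1800 and 2000 bp in SETD5 cells, and where it was in both lists they were 3200 and 3000 bp against 2800 and 3000 bp.

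The 8 members with the highest anchor score spanned 9.0 to 17.4 kb. All 8 had SETD5-V5 in both 6 h lists and H3K4me1 at 48 h, beside 57.9% and 90.8% of all members. Among members over 4000 bp, SETD5-V5 at 6 h was on 82.0% in replicate A and 69.5% in replicate B. In 7 of the 8 both SETD5 islands were shorter than both empty-vector islands, beside 35.4% of all members. These 8 were picked for their score in an empty-vector list that the rule also used, so these counts are descriptions. The highest was the 17.4 kb island in Micall1 (chr15:78951401-78968800), which was 17400 bp long in both empty-vector lists and 16400 and 17000 bp in the SETD5 lists, with SETD5-V5 islands of 17000 and 11800 bp at 6 h. The island 63.5 kb from the start of Dnttip2 (chr3:122034001-122047600) was 13600 bp in both empty-vector lists and 7200 and 6600 bp in the SETD5 lists. The exception was the island 54.5 kb from Abhd5 (chr9:122322001-122332600), with 10600 and 10000 bp in empty-vector and 7400 and 10400 bp in SETD5 cells, so that the groups overlapped. The others were in introns of Smoc1, Plcb1 and Foxp1 (chr6:99121201-99130200) and in intergenic sequence nearest to Mtx2 and to Cyp1b1. Smoc1 encodes a matrix protein, Plcb1 a phospholipase of receptor signalling, Foxp1 a forkhead transcription factor and Cyp1b1 a cytochrome of steroid and retinoid metabolism. The Smoc1 island (chr12:82223001-82240200) was 17200 and 13400 bp in empty-vector and 6000 and 6400 bp in SETD5 cells.

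Most members lay inside or near genes. The centre of 846 members (56.4%) was in an intron of a protein-coding gene, of 614 (40.9%) in intergenic sequence and of 41 (2.73%) in an exon. Among unprimed kept regions 43.2% were intronic, among primed absent regions 44.7% and among all distal islands 43.3%. The median distance to the nearest start of a protein-coding transcript was 25.6 kb (quartiles 10.9 and 63.8 kb) on members, 34.3 kb on unprimed kept regions, 19.2 kb on primed absent regions and 33.9 kb over all distal islands. Another member lay within 50 kb of 509 members (33.9%).

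With the limit of 50 kb, 1042 members (69.4%) were assigned to 868 genes, which is 3.90% of the 22238 protein-coding genes and 15.3% of the 5661 genes nearest to any distal island. Of these genes 738 had 1 member, 102 had 2 and 28 had 3 or more. Pde4d, a phosphodiesterase that degrades cAMP, Foxp1 and Snd1, a nuclease of RNA metabolism, had 7 members each. SETD5-V5 was in both 6 h lists on 6 of the 7 at Pde4d and on all 7 at Foxp1 and at Snd1. The share over all members was 57.9%. At 6 h, 36 SETD5-V5 islands of replicate A each lay over 2 or more members, so neighbouring members need not have separate SETD5-V5 islands. Lrp6, a Wnt co-receptor, had 4, all with SETD5-V5 in both lists, whereas Cd82, a tetraspanin, also had 4, of which 3 had it in neither. Itpr2, a calcium channel of the endoplasmic reticulum, and Kif6, a kinesin, had 4 members each, and Itpr1, Pcx (pyruvate carboxylase) and Phf17 had 3 each. Foxp1, Snd1, Lrp6, Itpr2 and Itpr1 lie on chromosome 6. There the mean SETD5-V5 share on members at 6 h was 77.6%, beside 67.7% over all members. Unprimed kept regions were assigned to 3 of these 10 genes, 7 to Pde4d and 1 each to Kif6 and Phf17. The 10 genes were picked for their number of members, so these counts cannot compare the 2 sets.

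The members at adipogenic and lipid genes are named in full. Of 33 adipogenic regulators 8 were nearest to a member (24.2%), and of 53 lipid genes 5 (9.43%), beside 3.90% of all protein-coding genes. Measured against the genes nearest to any distal island, the shares were 8 of 21 (38.1%) and 5 of 27 (18.5%), beside 15.3%. Unprimed kept regions were nearest to as many of both lists, 8 and 5, and to 1073 of all protein-coding genes, beside 868 for members. The lists were chosen with earlier results of these data known. The members at Scd1, Gpam, Mgll, Lep, Pparg and Klf15 lie on chromosomes 6 and 19. Members made up the largest shares of distal islands there, 14.2% and 12.1%. Of the 16 members at these 13 genes, 7 had SETD5-V5 in both 6 h lists (43.8%, beside 57.9% of all members), 1 in 1 list and 8 in neither, and 10 (62.5%, beside 35.4%) were shorter in both SETD5 lists while 1 was longer.

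Among the lipid genes, the Scd1 member 17.5 kb downstream of the start (chr19:44459401-44470000) was 10600 and 11400 bp in empty-vector and 6000 and 8400 bp in SETD5 cells, with SETD5-V5 islands of 27600 and 25800 bp at 6 h and an endogenous SETD5 island of 21200 bp. The Mgll member at 20.7 kb (chr6:88691001-88700000) was 9000 and 5400 bp in empty-vector and 600 and 1400 bp in SETD5 cells, and the second, at 49.1 kb (chr6:88721401-88726400), was 5000 and 4600 bp against 1200 and 2600 bp. Both had SETD5-V5 in both lists at 6 h and in neither at 0 h, and Mgll was also nearest to 2 primed absent regions. The member 13.6 kb upstream of Gpam, the acyltransferase of the first step of glycerolipid synthesis (chr19:55210601-55220200), was 9600 and 4400 bp against 3200 and 3000 bp and had endogenous SETD5 at 6 h. The member at Lep, the leptin gene (chr6:29020601-29026200), was 5600 and 4200 bp against 2000 bp in both SETD5 lists, and had no SETD5-V5 island at 6 h. The second Scd1 member, 30.6 kb upstream (chr19:44511001-44514600), was 3600 and 3200 bp against 1000 and 1800 bp, with SETD5-V5 at 6 h in replicate B alone. The member 3.87 kb upstream of Lipe, the hormone-sensitive lipase (chr7:26186801-26188400, in Cxcl17), was 1600 and 2600 bp against 2800 and 2400 bp, so that the groups overlapped.

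Among the adipogenic regulators, 1 member lay 21.7 kb downstream of the nearest Pparg start, in an intron (chr6:115332201-115333600). It was 1400 and 2800 bp in empty-vector cells, 1600 bp in both SETD5 lists, and had SETD5-V5 islands of 3200 and 2200 bp at 6 h and none at 0 h. No member lay within 100 kb of a Cebpa start. The member at Nfia, a transcription factor of the adipocyte lineage (chr4:97600801-97607600), was 6800 bp in both empty-vector lists and 4000 and 5600 bp in the SETD5 lists, with SETD5-V5 in both 6 h lists. The member upstream of Ebf2, a factor of brown preadipocytes (chr14:67830801-67832200), was 1400 bp in both empty-vector lists and 1800 and 5000 bp in the SETD5 lists, and was the member of the 16 that was longer. SETD5-V5 at 6 h was absent from the 2 members at Rxra and from those at Klf15, Zfp423, Nr1h3 (the oxysterol receptor LXRα) and Tle3 (a co-repressor). The Nr1h3 member (chr2:91026601-91029000) was 2400 and 2200 bp in empty-vector and 1400 bp in both SETD5 lists, and the Klf15 member (chr6:90396401-90401600) 5200 and 1600 bp against 1400 and 600 bp. The intronic Rxra member (chr2:27578801-27585800) lay in islands whose lengths differed widely between replicates, at 7000 and 27200 bp in empty-vector and 4200 and 38400 bp in SETD5 cells.

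The other lists are given beside the 3.90% of all protein-coding genes and the 15.3% of genes nearest to any distal island. Of 24 glucocorticoid-responsive genes 7 (29.2%) were nearest to a member: Fkbp5, Zbtb16, Mt1, Mt2, Errfi1, Ddit4 and Irs2, with 9 members of which 4 had SETD5-V5 in both 6 h lists. Unprimed kept regions were nearest to 9 of the 24. The 7 genes were 43.8% of the 16 genes of this list nearest to any distal island. Of 24 cAMP-responsive genes 3 (12.5%) were, namely Pde4d with 7 of the 9 members, Vegfa and Sst. Of 29 insulin signalling genes 5 (17.2%) were (Insr, Irs2, Foxo1, Foxo3 and Tbc1d1), with SETD5-V5 in both lists on 4 of 6 members. Of 35 preadipocyte and anti-adipogenic genes 4 (11.4%) were (Tcf7l2, Tgfb2, Smad3 and Twist2), of 36 matrix and cytoskeleton genes 4 (11.1%), and of 23 AP-1 and TEAD genes 2 (8.70%). None of 16 muscle and bone genes or of 14 housekeeping genes was nearest to a member, and of 16 macrophage, endothelial and epithelial genes 1 was (Cdh1). Among genes nearest to any distal island the shares were 23.1% for cAMP-responsive, 27.8% for insulin signalling, 19% for preadipocyte, 15.4% for AP-1 and TEAD and 14.3% for matrix and cytoskeleton genes, the last 2 near the share of all genes. Only 3 muscle and bone genes, 3 housekeeping genes and 8 macrophage, endothelial and epithelial genes were nearest to any distal island, so that 0 of 3, 0 of 3 and 1 of 8 (12.5%) do not set these lists apart from the 15.3% of all genes. Shares of short lists such as these are descriptions, and 1 gene moves them by several points.

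Members were spread unevenly over the chromosomes. Chromosome 6 held 194 members, 14.2% of its 1367 distal islands, and chromosome 19 held 86, 12.1% of 713, whereas the X chromosome held 2 of 524 (0.382%). The H3K4me1 list was uneven too, as 85.7% of distal islands on chromosome 6, 80.6% on chromosome 19 and 22.7% on the X chromosome had an H3K4me1 island at 0 h. The share of distal islands that were induced was 29.8%, 29.6% and 25%. The share of primed induced islands that were kept was 69.3% on chromosome 6, 69.4% on chromosome 19 and 50% of only 4 such islands on the X chromosome, and on the autosomes it lay between 57.6% (chromosome 5) and 83.3% (chromosome 14). SETD5-V5 at 6 h was also lower on the X chromosome, on 34.7% and 22.5% of distal islands, against 74.7% and 66.6% on chromosome 6. The cause of the unevenness was not tested.

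The differences in SETD5-V5 held within chromosomes. In replicate A the share with a SETD5-V5 island at 6 h was higher on members than on unprimed kept regions in 19 of 19 autosomes, and in replicate B in 17 of 19. Against primed absent regions it was higher in 19 of 19 autosomes in both replicates. With chromosome as a term and autosomes alone, the odds relative to members, averaged over replicates, were 0.561 for unprimed kept and 0.228 for primed absent regions, beside 0.470 and 0.263 without that term. For H3K27ac at 0 h in SETD5 cells, members were higher than either set in 19 of 19 autosomes in both replicates.

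**Figure D4:**
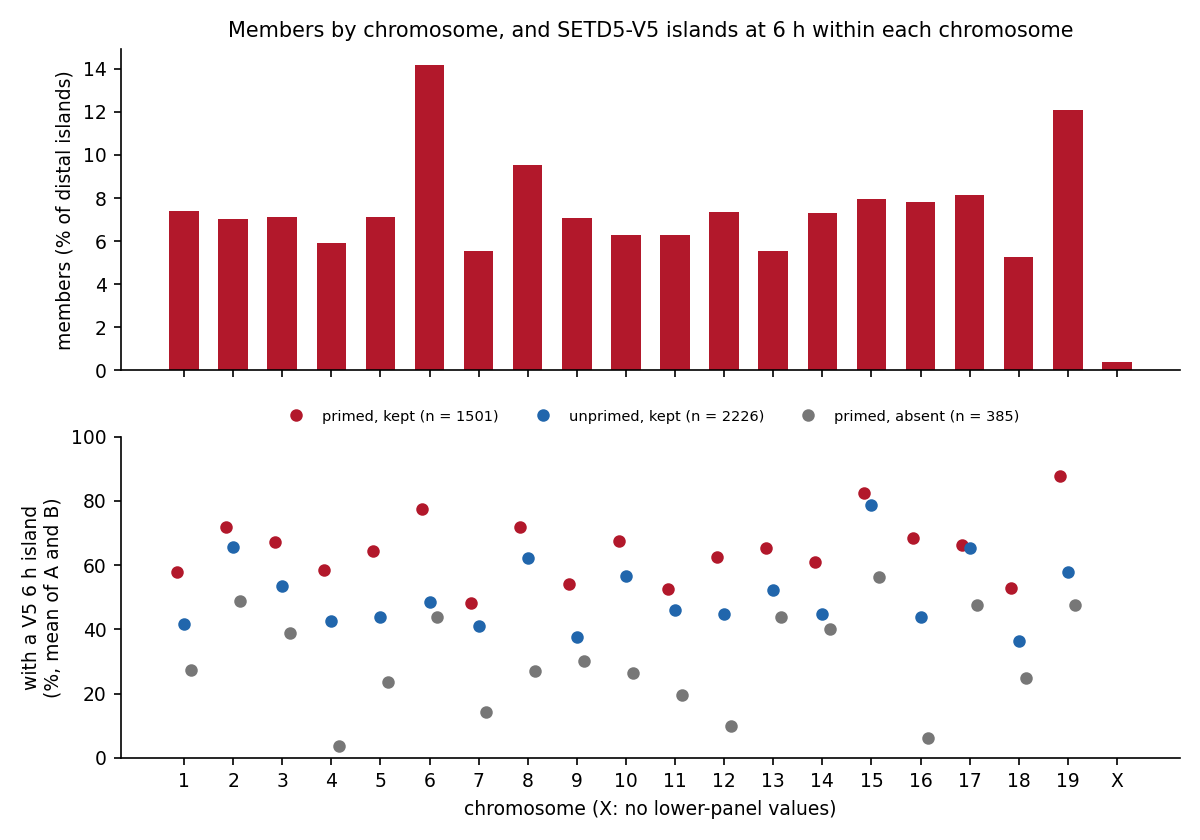
Members as a percentage of the distal islands of each chromosome (upper panel, bars) and percentage of regions with a SETD5-V5 island at 6 h, mean of replicates A and B, within each autosome (lower panel, points), for members (red), unprimed kept (blue) and primed absent regions (grey). Chromosomes 6 and 19 stood out above with 14.2% and 12.1%, and below the members led in each autosome by this mean.

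Motif matches were counted in 1000 bp windows centred on the islands. AP-1, the dimer of Fos and Jun proteins, had the highest ratio of member to flank density among the 9 motifs. A match was held by 30.3% of member windows, against 17.3% of windows 10 kb to either side, 26.9% of the windows of all distal islands, 26.8% of unprimed kept and 27.3% of primed absent windows. The number of AP-1 matches per kb was 1.88 times that of the flanks, beside 1.77 times for all distal islands and their own flanks. C/EBP matches were in 43.8% of member windows, 36.2% of flanks and 45.2% of all distal windows, at 1.29 times the flank density (1.32 times for all distal islands), and in 51.3% of unprimed kept windows. The glucocorticoid receptor motif was in 34.2% of member windows, 30.3% of flanks, 32.3% of all distal, 37.7% of unprimed kept and 28.1% of primed absent windows. EBF was in 24.0% of members, 20.3% of flanks, 22.7% of all distal, 16.5% of unprimed kept and 28.1% of primed absent windows. RUNX was in 23.4% of members, 22.3% of flanks and 23.3% of all distal windows, and TEAD in 14.5%, 14.6% and 18.2%. STAT5 was in 3.80% of members, 3.13% of flanks and 3.62% of all distal windows, at 1.23 times the flank density (1.34 times for all distal islands). CREB was in only 7 member windows (0.466%), beside 0.666% of flanks and 0.762% of all distal windows. PPAR-RXR matches were in 9 member windows (0.600%), beside 0.799% of flanks, 0.681% of all distal and 0.494% of unprimed kept windows. They were in 11 of the 385 primed absent windows (2.86%). At most 7 matches of any motif in the member windows overlapped a match of another. Base composition differed between the sets, with 46.1% G and C in member windows, 42.9% in unprimed kept windows and 45.0% in the flanks, and its part in these shares was not tested. Within the members, AP-1 matches were in 33.1% of windows with SETD5-V5 in both 6 h lists and in 24.6% of those with it in neither, EBF matches in 20.6% and 29.0%, and C/EBP matches in 46.6% and 41.7%, while the shares of the other 6 motifs differed by less than 1 percentage point. G and C made up 44.6% and 48% of these windows. Over all distal islands split in the same way the shares were 29.4% and 22.3% for AP-1, 21.1% and 23.7% for EBF and 46.1% and 45.6% for C/EBP, with 44.1% and 45.2% G and C. No test was made of these splits.

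**Figure D5:**
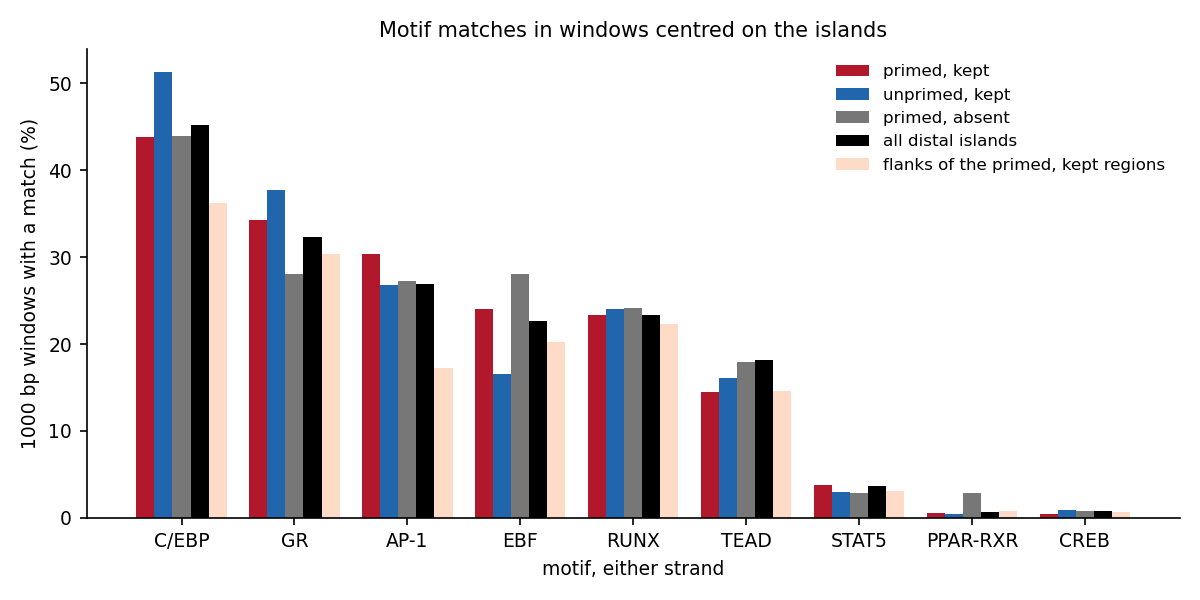
Percentage of 1000 bp windows (vertical axis) with at least 1 match to each motif (horizontal axis, GR for the glucocorticoid receptor) in members, unprimed kept regions, primed absent regions, all distal islands and the flanks of the members. AP-1 matches were in 30.3% of member windows and 17.3% of flanks, and C/EBP matches were most frequent in unprimed kept windows, at 51.3%.

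The edges of the rule were as follows. Overlaps of members with the required lists were mostly large, with a median of 81.8% of the anchor island covered in empty-vector replicate B, 72.2% and 77.8% in the SETD5 lists and 60% in the H3K4me1 list, and the smallest was 200 bp, which 13 members had with H3K4me1. An empty-vector 0 h island lay within 1000 bp of 119 members (7.93%), while the median distance to one was 8600 bp. Just outside the rule, 654 islands met every other condition but overlapped a 0 h island in exactly 1 replicate, 43 of them by at most 400 bp, and 226 did so but lay at a promoter.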

How the data were processed

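Chromatin immunoprecipitation and sequencing was done by the authors in 3T3-L1 cells, for 16 libraries with 1 island list each. Per the study's methods, the first 36 bp of reads were mapped to mm9 and islands were called by SICER at an E-value of 100 in windows of 200 bp, with the gap set to 400 bp when a histone mark was profiled and to 600 bp when SETD5 was. The study shows input from an earlier publication, and whether it entered the calling of islands is not given in the sources used here. The deposited values are SICER scores per island, which were compared by rank within a list only. They give no reads per island, and an absent island is one below the caller's threshold. Total reads per library are stated by the study and differ between libraries. The SETD5 libraries before induction had more reads than the empty-vector ones, above all in replicate A, and those at 48 h had more than the empty-vector ones in both replicates. The V5 libraries after induction had more than those before it, more so in replicate A than in B. These totals were not used here, and their part in the results was not tested beyond equal list sizes.

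From these lists, presence was scored as an overlap of at least 1 bp. Shares carry 95% Wilson intervals over regions, which cover the sampling of regions and not of cultures. Times were compared by two-sided exact permutation tests over libraries, sets scored in the same libraries by exact sign-flip tests, and sets of regions by logistic models per library with log island length as a covariate, in which neighbouring islands count as independent. Annotation was GENCODE for mm9, and coordinates are positions counted from 1. Regions were assigned to the nearest protein-coding start within 50 kb. The distance named with a region runs from that start, which may be internal to a gene.

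The regions, gene lists and tests were chosen with earlier results of these data known. Named regions were the 8 with the highest anchor score. The 6 named for the highest score among those with SETD5-V5 in both 6 h lists were the first 6 of these 8. Also named were those at genes of the adipogenic and lipid lists, and any within 100 kb of Cebpa or Pparg. Named genes were the 10 nearest to most members. Genes with equal numbers of members were ordered by the summed length of those members, so not all genes with 3 members were named. Alternatives changed the overlap, the score minimum, list sizes, merging, the anchor, the promoter window, covariates and replicates. Terms for chromosome were added after the data were seen. Models were fitted in statsmodels 0.14.6, and Wilson intervals were computed in SciPy 1.17.1. Permutation and sign-flip tests were run in purpose-written code with NumPy 2.4.6, under Python 3.11.15. Sequences were read with pysam 0.24.0 and figures drawn with matplotlib 3.10.9. The overlap and model steps were tested on simulated data.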

Additional observations from a re-analysis of the deposited data

How the results depend on the processing

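The number of members was 1501, and it was 727 when overlaps had to cover 0.5 of the anchor island, 721 when only islands at or above the median score of their list counted, and between 2102 and 2614 with 1 replicate left out (2102 without replicate B, 2614 without replicate A). It lay between 1306 and 1594 under the other 4 alternatives. The 4 odds ratios of SETD5-V5 at 6 h and of H3K27ac at 0 h in SETD5 cells kept their direction under all 48 alternatives. Their intervals, which are over islands and not cultures, left out 1 in each. Among the 48, those with 1 replicate left out only repeated the single-library fits given above, so they are no separate check. Over the 2 libraries each of the 4 contrasts had an exact sign-flip p = 0.5, so nothing was called at that level. In those fits the members were unchanged and 1 library was left out of the average. The odds ratios for SETD5-V5 at 6 h were then 0.424 and 0.521 (unprimed kept) and 0.246 and 0.281 (primed absent). Those for H3K27ac at 0 h in SETD5 cells were 0.340 and 0.367 (unprimed kept) and 0.154 and 0.163 (primed absent). The odds ratio of H3K4me1 at 48 h on primed absent regions, 0.799 with an interval that holds 1, was less settled. Its interval left out 1 at 0.667 (overlap of 0.5 of the island), 0.692 (equal numbers of islands per list) and 0.693 (chromosome as a term), and with the score minimum the direction reversed, at 1.19. Endogenous SETD5 on members at 6 h was 3.30% with the larger overlap and 3.21% with equal numbers, beside 4.26%. The C/EBP match density relative to the flanks, 1.29, was 1.18 in windows of 2000 bp and 1.14 over whole islands. The causes of these changes were not tested. Without a distance limit 1112 genes were nearest to a member, beside 868.

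The rise of SETD5-V5 on the unchanged members from 0 h to 6 h was 52.9 points within replicate B and 55.6 points within replicate A. With equal numbers of islands per list it was 19.5 points. With the replicate letter as a block it was 54.2 points, the same mean by construction. The exact sign-flip test gave p = 0.5, the smallest that 2 pairs allow. The letters pair only as labels, since no source says that A or B marks a shared culture. Island lists without read counts limit every statement here to presence above the caller's threshold.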

Other observations

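Leaving aside 664 distal induced islands that were in 1 of the SETD5 48 h lists, 4 classes ran in the same order in both SETD5-V5 libraries at 6 h. The mean share with an island was 67.7% ± 10.8 (SD, n = 2) on the 1501 primed kept members, 49.1% ± 9.02 on the 2226 unprimed kept regions, 34.9% ± 9.37 on the 385 primed absent regions and 20.6% ± 2.80 on 985 regions that were unprimed and absent with SETD5. The last 2 sets also had the fewest islands of H3K27ac at 0 h in SETD5 cells, at 5.32% ± 0.551 and 1.37% ± 0.359. Both were chosen for the absence of H3K27ac in SETD5 cells at 48 h, and the difference between these last 2 sets was not tested.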
